A study of Mus musculus with 44 samples.

Results

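The genes described here are 50 listed genes of complement, clotting and fibrinolysis, measured by bulk RNA sequencing in liver and skeletal muscle of mice with and without Slc16a13, a lactate transporter gene. The members were chosen by gene symbol and function, and all 50 symbols matched 1 gene each among the 38202 genes of the deposited count table. The groups were 11 WT and 11 SLC16A13 KO mice, each giving 1 liver and 1 muscle library, so that 44 libraries were compared. All mice were C57BL/6N males on high-fat diet (HFD) for 15 weeks and were killed at 20 weeks of age after an overnight fast. WT mice were littermates of the KO mice. The KO is constitutive, made with CRISPR/Cas9 by removing the proximal promoter and the first exons of Slc16a13, and by design is not limited to a tissue. No chow-fed group is among these samples, and every value therefore belongs to mice on HFD.

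Complement is a cascade of plasma proteases and binding proteins that tags and lyses targets, and clotting is a cascade of plasma proteases that ends in the cleavage of fibrinogen to fibrin. Fibrinolysis is the removal of fibrin by plasmin. Hepatocytes secrete most of these plasma proteins, whereas macrophages make C1q, adipocytes make factor D (Cfd), endothelial cells make von Willebrand factor (Vwf) and thrombomodulin (Thbd), and macrophages and related cells make the A subunit of factor XIII (F13a1). A comparison of WT liver with WT muscle was used to separate members made mainly in liver from members made in both tissues or locally, after which KO was compared with WT in each tissue.

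Total counts ran from 20150712 to 35218243 reads per library. Levels of 1 gene across libraries are given as CPM, in which the reads of the gene are scaled to the total of the library, and levels of different genes are compared only as the deposited RPKM, which also divides by gene length. Slc16a13 itself was at 3.80 to 9.63 CPM in the WT livers and at 0 to 0.285 CPM in the KO livers. In muscle it went against the label, with 0.172 to 0.888 CPM in WT and 0.443 to 1.14 CPM in the libraries labelled KO, and these are called by their label throughout. Of the KO livers, 4 (animals 532, 602, 583 and 611) stood apart from all others because their counts fell with gene length. In these 4 the slope of a gene's log2 CPM, relative to the mean of all livers, on log2 gene length ran from -0.596 to -0.0861, against 0.0415 to 0.108 in the WT livers. Differences between KO and WT liver are therefore given with and without these 4 libraries. The 15 hepatocyte markers that are not members summed to 135913 to 165093 CPM in WT liver, and the 6 skeletal muscle markers to 137466 to 174812 CPM in WT muscle, so both tissues carried their own markers.

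The promoters of the 3 fibrinogen chains are shown because these chains were among the members with the highest levels in liver and varied together between mice. The next 3 promoters, of Hc (complement C5), F13b (the B subunit of factor XIII) and C4bp (a complement regulator), are shown because they are 3 of the 4 that hold a match to the binding motif of the liver factor HNF1. RefSeq promoters on GRCm38.p6 were found for 36 of the 50 members. Printed are the 250 bases before the annotated start, 5′ to 3′ on the strand of the gene, with matches to 3 short motifs of liver factors in capitals. The letters searched on both strands were TTAATNATT for HNF1, CAAAGNCCA for HNF4 and TTGCNNAA for C/EBP. The windows lie at chr3:83025903-83026152, plus strand for Fga, chr3:83049864-83050113, minus strand for Fgb, chr3:83007474-83007723, plus strand for Fgg, chr2:35061413-35061662, minus strand for Hc, chr1:139501457-139501706, plus strand for F13b and chr1:130661619-130661868, minus strand for C4bp.
Fga: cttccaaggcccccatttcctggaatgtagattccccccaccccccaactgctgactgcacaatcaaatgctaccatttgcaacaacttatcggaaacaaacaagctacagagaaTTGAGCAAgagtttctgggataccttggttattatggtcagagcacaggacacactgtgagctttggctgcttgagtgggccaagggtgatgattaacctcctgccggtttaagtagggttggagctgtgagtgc
Fgb: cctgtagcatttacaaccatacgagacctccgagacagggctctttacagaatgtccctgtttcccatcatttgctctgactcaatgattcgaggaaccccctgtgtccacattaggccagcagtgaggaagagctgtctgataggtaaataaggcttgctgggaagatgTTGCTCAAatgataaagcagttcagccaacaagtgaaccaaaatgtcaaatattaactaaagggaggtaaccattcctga
Fgg: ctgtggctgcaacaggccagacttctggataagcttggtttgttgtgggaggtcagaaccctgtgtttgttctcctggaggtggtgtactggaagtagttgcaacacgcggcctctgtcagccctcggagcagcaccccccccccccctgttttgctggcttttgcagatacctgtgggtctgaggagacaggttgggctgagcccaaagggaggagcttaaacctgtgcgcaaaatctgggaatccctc
Hc: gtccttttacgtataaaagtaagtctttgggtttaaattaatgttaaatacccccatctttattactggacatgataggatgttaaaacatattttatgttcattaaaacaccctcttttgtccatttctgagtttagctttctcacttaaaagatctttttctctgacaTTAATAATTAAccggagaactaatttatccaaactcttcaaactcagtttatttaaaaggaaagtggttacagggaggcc
F13b: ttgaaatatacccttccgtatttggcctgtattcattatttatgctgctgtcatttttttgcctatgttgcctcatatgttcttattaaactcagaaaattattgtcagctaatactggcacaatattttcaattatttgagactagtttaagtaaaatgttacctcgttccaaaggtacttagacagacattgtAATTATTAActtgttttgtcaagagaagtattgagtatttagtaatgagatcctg
C4bp: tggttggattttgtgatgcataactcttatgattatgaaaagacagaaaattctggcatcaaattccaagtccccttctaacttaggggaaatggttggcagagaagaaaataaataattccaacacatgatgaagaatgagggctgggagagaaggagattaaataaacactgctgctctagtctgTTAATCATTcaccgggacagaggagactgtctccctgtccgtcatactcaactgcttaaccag

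In these windows Fga held a C/EBP match starting 135 bases before the start and Fgb held one at 80 bases, while Fgg held no match to the 3 motifs. Hc held 2 overlapping HNF1 matches on opposite strands, at 80 and 78 bases, F13b held one at 55 bases and C4bp at 63 bases. Of the members at least 16-fold higher in liver, described next, 29 had a promoter, and 4 of the 29 (13.8%) held the HNF1 letters, 2 (6.9%) the HNF4 letters and 7 (24.1%) the C/EBP letters. Among all 32851 promoters of the same length in the table, the shares were 1.4%, 1.7% and 9.56%. These shares count each promoter, whereas a member with more than 1 promoter was counted once, with a match in any of them. The other 7 members with a promoter held none of the 3. A match is only a match of letters, and no binding was measured.

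WT liver and WT muscle were compared to place each member. All 50 members differed between the tissues at an adjusted p under 0.05 (edgeR quasi-likelihood test), of which 43 were higher in liver and 7 were higher in muscle. The background was high, as 45.5% of the 13907 genes tested were called higher in liver and likewise 45.5% lower. The CPM ranges of the 11 WT livers and the 11 WT muscles did not overlap for 48 members, against 70.1% of all genes, and the 2 with an overlap were F3 and Thbd. A fitted ratio of 16-fold or more (log2 of 4) was taken as liver-made, under 2-fold (log2 of 1) as local and anything between as shared, which gave 37 liver-made, 6 shared and 7 local members. Of all genes, 9.1% reached 16-fold. Serping1, at a log2 ratio of 3.90, lay just below the upper boundary and C1ra, at 4.35, was the first member above it. No member lay close to the lower boundary, where Tfpi, at 1.88, was the first member above and F3, at -0.53, the first below. These classes describe where the RNA was found and not the cell that made it, since in bulk tissue fewer cells of a type and less RNA per cell cannot be told apart.

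Fibrinogen, the precursor of fibrin, is built from 3 chains. Fga (alpha chain) was at 3304 CPM in the lowest, 4099 in the median and 5824 in the highest WT liver, and at 0, 0 and 0.198 CPM in WT muscle. Fgb (beta chain) was at 2678, 3232 and 4809 CPM in WT liver and reached 0.317 CPM in WT muscle. Fgg (gamma chain) was at 2341, 2663 and 3945 CPM in WT liver and reached 0.198 CPM in WT muscle. The log2 ratios of liver over muscle were 17.03 ± 0.26 (SE) for Fga, 15.78 ± 0.26 for Fgb and 16.83 ± 0.26 for Fgg. Per length, Fgb and Fgg, at median RPKM of 1966 and 1703 in WT liver, were behind only C3 among the members, at 2153, and Fga followed at 1465.

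**Figure D1:**
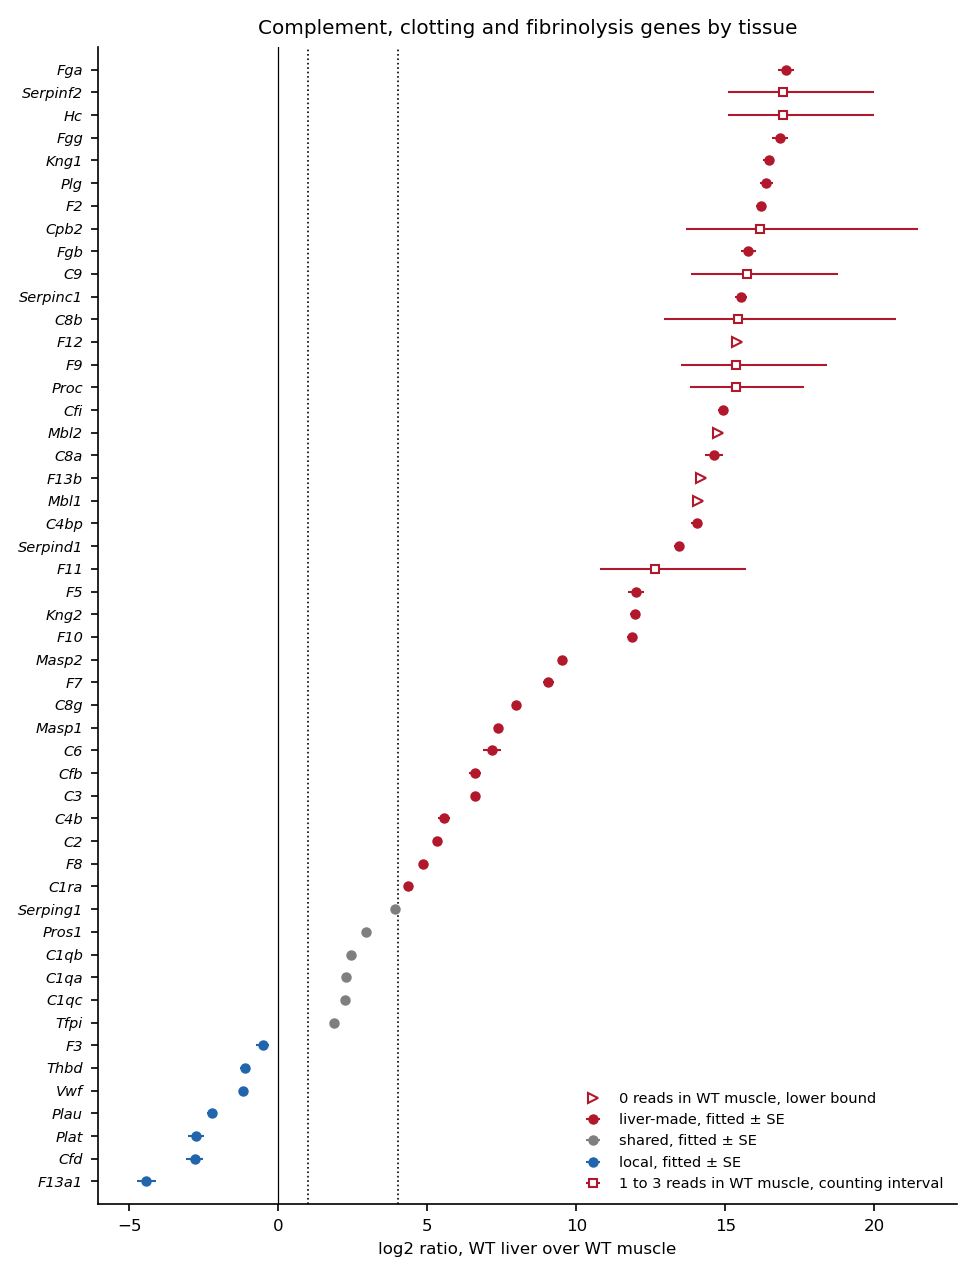
Ratio of WT liver over WT muscle (log2, horizontal axis) for each of the 50 members (vertical axis, ordered by the value plotted), 11 libraries per tissue. Filled circles are fitted ratios with their standard error, open squares are ratios of pooled CPM with the counting interval for members with 1 to 3 reads in all WT muscles together, open triangles are lower bounds for members without a read there, and dotted lines mark 2-fold and 16-fold. The 7 local members lie left of 0 and the liver-made members reach 17.03 (Fga).

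The other clotting factors followed the same pattern with a few exceptions. Prothrombin (F2) was at 1739, 1898 and 1991 CPM in WT liver and at most 0.0793 CPM in WT muscle, a log2 ratio of 16.20 ± 0.17. The protease genes F7 (9.06 ± 0.18) and F10 (11.86 ± 0.16), the cofactor gene F5 (12.01 ± 0.27) and the kininogen genes Kng1 (16.45 ± 0.18) and Kng2 (11.96 ± 0.15) were also liver-made. F12, the contact factor, and F13b had no read in any WT muscle, so their pooled CPM was at least 42900-fold and 18500-fold higher in liver, taking 3 reads over the whole group as the floor. F9 and F11 had 2 reads each over all WT muscles, for ratios of pooled CPM of 42100 (95% counting interval 11600 to 347000) and 6400 (1770 to 52900). The cofactor gene F8, which endothelial cells make, was the clotting factor gene nearest to the liver-made boundary, with 21.5 to 29.8 CPM in WT liver, 0.472 to 1.05 CPM in WT muscle and a log2 ratio of 4.85 ± 0.08. All these intervals and floors cover counting error only.

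Tissue factor (F3), the membrane protein that starts clotting, did not follow. It was at 0.993, 1.97 and 4.39 CPM in WT liver and 1.502, 3.16 and 4.63 CPM in WT muscle, with overlapping ranges and a log2 ratio of -0.53 ± 0.21 (adjusted p = 0.019, edgeR quasi-likelihood test). F13a1, the A subunit of the fibrin-crosslinking factor XIII, was at 0.0815, 0.385 and 1.20 CPM in WT liver against 5.54, 9.67 and 19.7 CPM in WT muscle, and its log2 ratio of -4.44 ± 0.32 was the lowest of all members. The 2 subunits of 1 plasma factor therefore had opposite patterns, since F13b was at 182 to 203 CPM in WT liver and at 0 in all 11 WT muscles. Vwf, which tethers platelets, was at 9.13 to 15.7 CPM in WT liver and 21.4 to 35.9 CPM in WT muscle (log2 ratio -1.18 ± 0.09).

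Among the anticoagulant genes, antithrombin (Serpinc1) was at 1798, 1920 and 2119 CPM in WT liver, with a log2 ratio of 15.53 ± 0.19, and heparin cofactor II (Serpind1) followed at 13.44 ± 0.18. Protein C (Proc), which degrades the activated cofactors, had 3 reads in all WT muscles, for a ratio of pooled CPM of 41700 (14300 to 202000). Its cofactor protein S (Pros1) was shared, at 51.7 to 74.7 CPM in WT liver and 5.19 to 11.1 CPM in WT muscle (log2 ratio 2.95 ± 0.09). Tissue factor pathway inhibitor (Tfpi) was shared at 1.88 ± 0.13, and Thbd, the endothelial receptor through which thrombin activates protein C, was higher in muscle at -1.11 ± 0.16. Thbd ran from 3.63 to 11.96 CPM in WT liver and from 11.8 to 22.8 CPM in WT muscle, so that the ranges just touched.

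Fibrinolysis was divided between the tissues. Plasminogen (Plg), the precursor of plasmin, was at 2449, 2648 and 2869 CPM in WT liver (log2 ratio 16.37 ± 0.22). Both inhibitors of fibrinolysis on the list, alpha2-antiplasmin (Serpinf2) and Cpb2 (TAFI), were liver-made, with 2 reads and 1 read in all WT muscles and pooled ratios of 126000 (34800 to 1040000) and 73100 (13100 to 2890000). The 2 activators of plasminogen were instead higher in muscle. Plat (tPA) was at 0.149, 0.546 and 1.75 CPM in WT liver and 3.32, 5.46 and 8.05 CPM in WT muscle (-2.75 ± 0.27), and Plau (uPA) at 1.54, 3.15 and 6.002 CPM against 10.1, 17.6 and 24.2 CPM (-2.22 ± 0.17). Neither activator overlapped between the tissues.

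In complement, C3, the central component, had the highest level per length of all members in WT liver, and it was also well above 0 in muscle. Its CPM in WT liver was 6114, 7000 and 8751 and in WT muscle 46.4, 76.1 and 98.6, a log2 ratio of 6.59 ± 0.13. The convertase genes had similar ratios, at 6.60 ± 0.19 for Cfb, 5.55 ± 0.19 for C4b and 5.34 ± 0.15 for C2, and C6, the first member of the terminal pathway after C5, was at 7.17 ± 0.31. The remaining terminal genes were nearly absent from muscle. Hc and C9 had 2 reads each and C8b 1 read in all WT muscles, and C8a reached a log2 ratio of 14.63 ± 0.30. C8g, the third chain of C8, differed from its partners because it was found in every WT muscle, at 1.12 to 1.59 CPM with a coefficient of variation of 9.53%, and its log2 ratio was 7.96 ± 0.06.

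The lectin pathway was liver-made throughout. The mannose-binding lectin genes Mbl1 and Mbl2 had no read in WT muscle, so that pooled CPM was at least 17300-fold and 27600-fold higher in liver, and the proteases Masp1 and Masp2 were at log2 ratios of 7.38 ± 0.11 and 9.515 ± 0.12. The regulators Cfi and C4bp were at 14.91 ± 0.16 and 14.04 ± 0.18. C1q, the recognition protein of the classical pathway, was shared, as C1qa, C1qb and C1qc were at 2.27 ± 0.13, 2.45 ± 0.14 and 2.25 ± 0.11, and the C1 inhibitor gene Serping1 was at 3.90 ± 0.09. Cfd, the protease that activates factor B, was the only complement member higher in muscle, with 1.29, 3.90 and 8.94 CPM in WT liver and 13.7, 28.2 and 59.2 CPM in WT muscle (-2.80 ± 0.29). Serping1 and Cfd, at median RPKM of 37.6 and 30.5, were the members with the highest level per length in WT muscle. The near-identical copies C4b and C4a, and the pairs Kng1 and Kng2, are uncertain to the extent that the counting divided shared reads between them. The exons of 8 members overlap a gene on the other strand, among them Masp2 with Tardbp and Serpinc1 with Zbtb37, and although the libraries keep strand, the strand setting of the counting is not given in the sources used here.

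The members differed widely in how much they varied between WT livers. The lowest coefficients of variation were those of F13b (3.64%), F9 (3.89%) and F2 (4.20%), and the highest among liver-made members those of C8b (33.8%) and C8a (25.4%), with C6 between them. The fibrinogen genes, at 16.5% to 17.5%, were between these, and they varied together. Over the 11 WT livers, log2 CPM of Fga and Fgb correlated with a Pearson r of 0.979 and a Spearman rho of 0.973, Fga and Fgg with 0.967 and 0.982, and Fgb and Fgg with 0.986 and 0.991. All 6 coefficients had a two-sided permutation p of 1e-05, the smallest that 100000 resamples can give, adjusted over 15 relations to 2.5e-05 for r and 3.75e-05 for rho. These relations and the correlations below were chosen after their values were seen, and the adjustment does not cover that choice. Without the 2 livers farthest from the median of the first gene, r was 0.942, 0.950 and 0.976. The ratio of Fgb to Fga CPM within a WT liver ran from 0.774 to 0.868 and that of Fgg to Fga from 0.643 to 0.761.

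**Figure D2:**
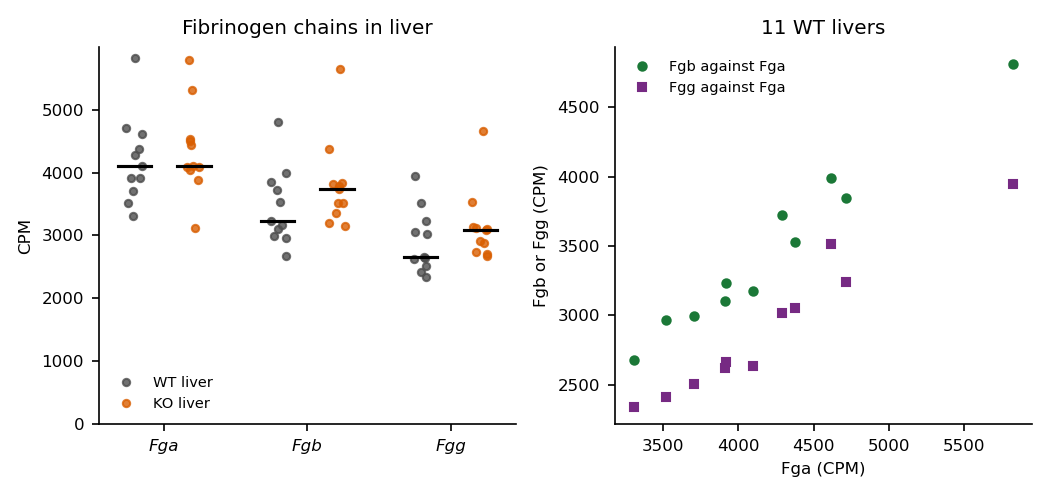
CPM of Fga, Fgb and Fgg in each of the 11 WT and 11 KO livers (left, bars are medians), and CPM of Fgb and Fgg against Fga in the 11 WT livers (right, axes do not start at 0). The groups overlap for all 3 chains, and in WT livers the chains rise together, with r from 0.967 to 0.986.

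The C1q genes showed the same in muscle more than in liver. In WT muscle, r was 0.958 for C1qa with C1qb, 0.965 for C1qa with C1qc and 0.936 for C1qb with C1qc, with rho of 0.891, 0.936 and 0.973 (permutation test, adjusted p from 2.5e-05 to 4.29e-05 for r and 3.75e-05 to 0.000986 for rho), and without the 2 farthest muscles r stayed between 0.880 and 0.915. In WT liver, r was 0.900 for C1qa with C1qc (rho 0.864, permutation test, adjusted p = 0.000483 and 0.0021) and 0.773 without 2 livers. It was 0.711 for C1qa with C1qb (rho 0.691, permutation test, adjusted p = 0.0146 and 0.0288) and 0.432 without 2 livers, so this relation rested on those 2. C1qb with C1qc was at 0.435 (rho 0.427, permutation test, adjusted p = 0.193 and 0.221), falling to 0.287. The coefficients of variation were 6.79% to 8.49% in WT liver and 28.5% to 33.5% in WT muscle.

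KO and WT liver were then compared. The libraries of WT mice are the same as those behind the classes above. No member passed an adjusted p of 0.05 in liver (edgeR quasi-likelihood test, 49 of 50 members tested, F13a1 being too low), where 3 of 13005 genes (0.0231%) did, including Slc16a13 itself. DESeq2 called no member either, with 18 of 50 at an unadjusted p under 0.05, against 2202 of 22352 genes. By edgeR at an unadjusted p under 0.05 there were 15 of 49 members, against 1669 of 13005 genes (12.8%). All 15 were higher in KO, as were 1267 of those 1669 genes (9.74% of all genes). Of the 49 members, 36 had a log2 fold change above 0, against 48.9% of all genes, and 31 with scaling by library size alone. The median over members was 0.13, against -0.01 over all genes, and 0.065 against -0.07 with that scaling. The 15 were C1qa, C1qb, C1qc, C1ra, C2, C8g, Mbl1, Serping1, F2, F7, F10, Plg, Kng1, Kng2 and Serpinf2, of which 11 were liver-made, 4 shared and none local. By arm, 18 of 22 complement members, 10 of 16 clotting factors, 4 of 6 anticoagulant members and 4 of 5 fibrinolysis members tested were above 0, with medians of 0.16, 0.10, 0.08 and 0.13. Without the 4 KO livers with a slope below 0 these counts were 18 of 22, 13 of 17, 5 of 6 and 3 of 5, with medians of 0.07, 0.05, 0.06 and 0.10.

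The count at that p and the size of the median depended on the 4 KO livers in which counts fell with gene length. Without them no member of 50 was under an unadjusted p of 0.05, against 2.88% of 13210 genes, 39 had a log2 fold change above 0, against 50.3% of genes, and the median over members was 0.06. A smooth trend on gene length was instead removed from every library, with the 4 kept. Then 12 of 49 members were at that p, against 1120 of 13005 genes. Of the 49, 38 were above 0, and the median was 0.10, against 0.01 over all genes. Across members, the log2 fold change fell with gene length with a Spearman rho of -0.711 (49 members, which share the same libraries), against -0.633 over 12980 genes. Without the 4 livers rho was -0.011 over 50 members and 0.145 over 13159 genes. With the smooth trend removed and the 4 kept, rho was -0.261 over 49 members and -0.003 over 12980 genes. Some fall with length therefore remained among the members. The shortest members, C8g, Mbl1, Cfd, C1qa and C1qb, all had fold changes above 0 with all 22 livers, and the longest, F5 and F8, fold changes below 0.

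**Figure D3:**
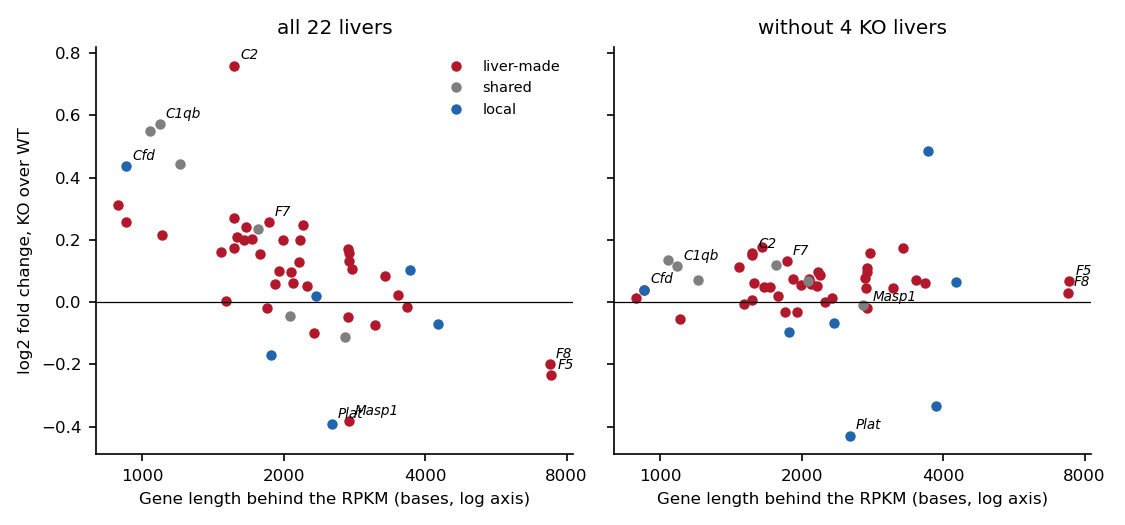
Log2 fold change of KO over WT liver (vertical axis) against gene length in bases on a log axis for the members, with all 22 livers (left, 49 members) and without the 4 KO livers with a slope below 0 (right, 50 members), coloured by tissue class. The downward trend on the left, with a rho of -0.711, is not seen on the right, with a rho of -0.011.

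C2, a protease of the classical and lectin convertase, had the smallest p of the members in liver. It was at 88.6, 119 and 149 CPM in WT and at 112, 133 and 464 CPM in KO, a log2 fold change of 0.76 ± 0.22 (SE, edgeR quasi-likelihood test, adjusted p = 0.383). Of the KO livers 5 were above every WT liver, and the 4 with a slope below 0 were at 189 to 464 CPM while the other 7 were at 112 to 158 CPM. Without the 4 its log2 fold change was 0.15 ± 0.08. In the annotation C2 shares 1656 exon bases with a read-through gene on the same strand, Gm20547, which was counted at 0 to 277 reads in the livers against 2172 to 13039 reads for C2. Cfb shares 2246 exon bases with the same gene on the same strand. Cfb was counted at 20549 to 32586 reads in the livers and 104 to 1184 in the muscles, where Gm20547 had 0 to 29.

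The C1q genes were next in size. C1qb was at 50.1, 55.8 and 63.2 CPM in WT and 44.1, 67.5 and 219.7 CPM in KO (0.57 ± 0.20), with log2 fold changes of 0.55 ± 0.19 for C1qa and 0.44 ± 0.17 for C1qc, each with an adjusted p of 0.383 by the edgeR quasi-likelihood test. The groups overlapped for all 3 genes. The highest value of each was in KO liver 532, which also had the highest sum of the 9 macrophage and Kupffer cell markers, 632 CPM against 305 to 397 CPM in WT and 278 to 471 CPM in the other KO livers. In that liver the macrophage receptor Marco was at 101.7 CPM, against 2.16 to 19.4 CPM in WT. Liver 532 also had the steepest slope on gene length. C1qb was above every WT liver in 7 KO livers. Among these, animals 532, 568, 570 and 611 had macrophage and Kupffer cell sums above the WT range. In animals 583, 587 and 602 the sums were 340, 384 and 310 CPM, inside that range. The part of the macrophage markers or of the slope in the result was not tested. Without the 4 livers the C1q genes were at 0.13 ± 0.08 (C1qa), 0.12 ± 0.07 (C1qb) and 0.07 ± 0.09 (C1qc).

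The other members with the smallest p moved by less. Serping1 was at 831, 925 and 1229 CPM in WT and 958, 1058 and 1374 CPM in KO (0.23 ± 0.08), and all 11 KO livers were above the WT median although the ranges overlapped. F2 was at 1739, 1898 and 1991 CPM in WT and 1789, 1955 and 2449 CPM in KO (0.20 ± 0.08), where the 4 livers with a slope below 0 were above every WT liver. F7 (0.26 ± 0.09), F10 (0.24 ± 0.09), Serpinf2 (0.20 ± 0.07) and C1ra (0.16 ± 0.06), the protease that C1q activates, completed the 10, all with an adjusted p of 0.383 (edgeR quasi-likelihood test). Without the 4 livers Serping1 was at 0.12 ± 0.07, F7 at 0.13 ± 0.08, C1ra at 0.11 ± 0.06, Serpinf2 at 0.10 ± 0.07, F2 at 0.05 ± 0.05 and F10 at 0.05 ± 0.05.

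The 2 longest members, F5 and F8, and Masp1, which was picked after its values were seen, were below every WT liver in the same 4 libraries. Members close to Masp1 (2752 bases) in length went both ways. Plg, C1ra, C6 and Fga, at 2755, 2751, 2737 and 2798 bases, had fold changes above 0. F9 and Pros1, at 2734 and 2704 bases, had fold changes below 0, as Masp1 did. The part of gene length in the values of Masp1 was not tested. F5 was at 689, 729 and 786 CPM in WT, at 693 to 809 CPM in 7 KO livers and at 207 to 490 CPM in the 4. Masp1 was at 56.4, 64.2 and 71.3 CPM in WT, at 56.8 to 70.7 CPM in the 7 and at 7.69 to 47.3 CPM in the 4. F8 was at 9.53 to 21.3 CPM in the 4 and 21.1 to 29.2 CPM in the 7, which overlapped, against 21.5 to 29.8 CPM in WT. For F8, 5 KO livers were below every WT liver. Of the fibrinogen chains, Fgb was at 3159, 3734 and 5642 CPM and Fgg at 2680, 3089 and 4667 CPM in KO, with groups that overlapped WT. The ratio of Fgb to Fga, which was at most 0.868 in the WT livers, reached 1.23 in KO liver 532, where Fga had its lowest level of any KO liver, 3121 CPM.

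**Figure D4:**
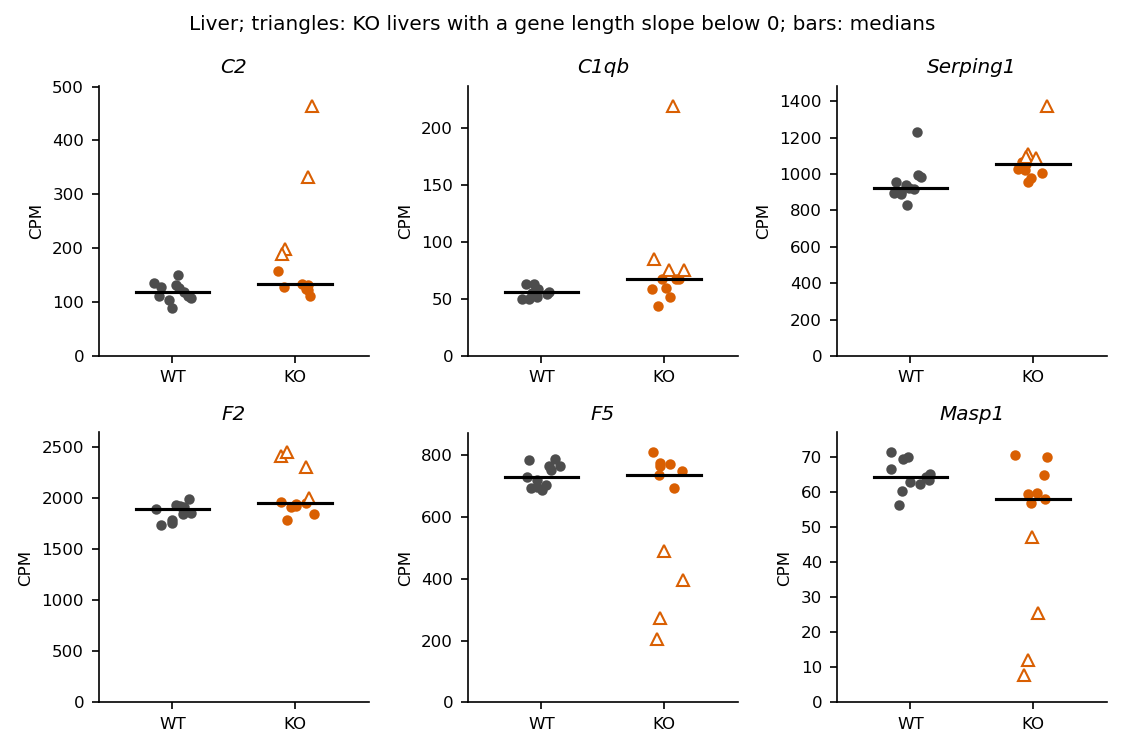
CPM of 6 members in each of the 11 WT and 11 KO livers, with bars at the medians and axes starting at 0. Open triangles are the 4 KO livers whose counts fell with gene length, which hold the highest KO values of C2, C1qb, Serping1 and F2 and the lowest of F5 and Masp1.

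In muscle, libraries labelled KO were compared with WT. Only 21 members had enough reads to be tested, and 29 were left out, all of them liver-made. No member passed an adjusted p of 0.05 (edgeR quasi-likelihood test), where 1 of 13266 genes (0.00754%) did. DESeq2 also called none, with 2 of 50 members at an unadjusted p under 0.05, against 1282 of 23360 genes. By edgeR at an unadjusted p under 0.05 there was 1 member, Cfd, against 8.56% of all genes, or 3.69% counting only genes higher in the libraries labelled KO. Of the 21, 19 had a log2 fold change above 0, against 53.7% of all genes, with F8 and Thbd below 0, and the median over members was 0.18, against 0.01 over all genes. By class, 7 of 8 liver-made, 6 of 6 shared and 6 of 7 local members tested were above 0.

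Cfd was at 13.7, 28.2 and 59.2 CPM in WT muscle and 16.2, 35.8 and 171.4 CPM in the libraries labelled KO. Its log2 fold change was 0.73 ± 0.34 (unadjusted p = 0.0458, adjusted p = 0.571, edgeR quasi-likelihood test). The ranges overlapped, and 2 libraries labelled KO (animals 561 and 611, at 171.4 and 82.6 CPM) were above every WT library. These 2 also had the highest sums of 6 marker lists. For adipocytes they had 1849 and 1779 CPM summed over 7 adipocyte markers, against 271 to 882 CPM in WT and 352 to 595 CPM in the other libraries labelled KO. Macrophage markers summed to 86.5 and 92.7 CPM in the 2 (at most 68.4 CPM in WT), endothelial markers to 346 and 380 CPM (312 CPM), fibroblast markers to 1001 and 1139 CPM (874 CPM), platelet markers to 7.02 and 8.01 CPM (5.84 CPM) and hepatocyte markers to 555 and 387 CPM (343 CPM). Of the 15 hepatocyte markers, 12 in WT muscle and 11 in the libraries labelled KO had medians under 1 CPM. Alb, a hepatocyte marker, was at 1.91 CPM in animal 561 and 4.49 CPM in animal 611. It was highest in labelled KO animal 597, at 5.55 CPM, where the hepatocyte sum was 204 CPM. The 6 skeletal muscle markers were lowest in animal 611, at 127514 CPM. The part of any of these cell types in the result was not tested. All 7 adipocyte markers were found in every muscle library, and Adipoq was at 234.8 and 177.8 CPM in the 2. Within the libraries labelled KO, log2 CPM of Cfd and Adipoq had an r of 0.772 (rho 0.264, permutation test, adjusted p = 0.0139 and 0.468), but r was -0.292 without the 2 farthest libraries, so that the relation rested on those. In WT muscle r was 0.288 (rho 0.218, permutation test, adjusted p = 0.393 and 0.52).

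Cfb was set against the summed adipocyte markers, a relation picked after its values were seen. It was at 4.46, 10.5 and 17.9 CPM in WT muscle and 5.08, 11.4 and 48.0 CPM in the libraries labelled KO (0.40 ± 0.31, adjusted p = 0.738, edgeR quasi-likelihood test), again highest in animals 561 and 611. Its log2 CPM correlated with that of the summed markers with r of 0.951 in WT muscle (rho 0.945, permutation test, adjusted p = 2.5e-05 and 0.000225, and r of 0.940 without 2 libraries) and r of 0.917 in the libraries labelled KO (rho 0.800, permutation test, adjusted p = 0.000206 and 0.0077, and r of 0.724 without 2 libraries). C3 was at 46.4, 76.1 and 98.6 CPM in WT muscle and 46.3, 88.0 and 179.8 CPM in the libraries labelled KO (0.29 ± 0.17, adjusted p = 0.647, edgeR quasi-likelihood test). Without animals 561 and 611, a choice made after seeing the data, Cfd was at 0.14 ± 0.23, C3 at 0.16 ± 0.15 and Cfb at -0.11 ± 0.20. The median over members was then 0.03, with 14 of 21 above 0.

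**Figure D5:**
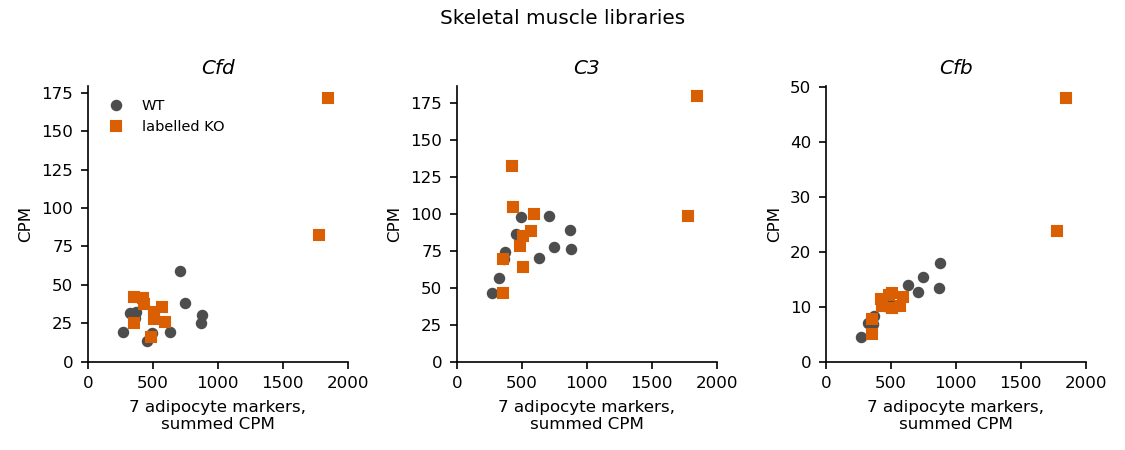
CPM of Cfd, C3 and Cfb (vertical axes, from 0) against the summed CPM of 7 adipocyte markers (horizontal axis) in each muscle library, with circles for WT and squares for libraries labelled KO, 11 each. The 2 libraries with 1779 and 1849 CPM of the markers hold the highest Cfd and Cfb.

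The other members with the smallest p in muscle were Pros1 (0.18 ± 0.11), Vwf (0.14 ± 0.09), C1ra (0.19 ± 0.13), C1qb (0.28 ± 0.20), C8g (0.18 ± 0.14), Plat (0.27 ± 0.21) and Serping1 (0.11 ± 0.09), with adjusted p from 0.665 to 0.763 (edgeR quasi-likelihood test). Vwf was at 21.4, 24.3 and 35.9 CPM in WT and 24.04, 26.3 and 43.3 CPM in the libraries labelled KO, and 9 of these 11 were above the WT median. All 7 had overlapping groups. Without animals 561 and 611, Pros1 was at 0.06 ± 0.10, Vwf at 0.03 ± 0.07, C1ra at 0.11 ± 0.13, C1qb at 0.07 ± 0.19, C8g at 0.22 ± 0.15, Plat at 0.15 ± 0.22 and Serping1 at 0.07 ± 0.10.

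The 29 members left out were present in muscle at traces. Summed, they came to 0.959, 1.28 and 2.66 CPM in WT and 0.965, 1.92 and 4.31 CPM in the libraries labelled KO, and no single one exceeded 1.51 CPM. Mbl1, Mbl2, F12 and F13b were without a read in WT, and in the libraries labelled KO each of the 29 had at least 1 read. Alb, the defining hepatocyte marker, was at 0.215, 0.429 and 4.32 CPM in WT muscle and 0.429, 1.52 and 5.55 CPM in the libraries labelled KO, and of 15 hepatocyte markers 12 and 11 had medians under 1 CPM. The highest Alb and the highest sum fell in the same library in both groups, WT animal 616 and labelled KO animal 597. The sum and Alb correlated with r of 0.757 in WT (rho 0.700, permutation test, adjusted p = 0.00537 and 0.0288, and r of 0.535 without 2 libraries) and 0.807 in the libraries labelled KO (rho 0.791, permutation test, adjusted p = 0.00537 and 0.00837, and r of 0.671). Whether these reads came from muscle was not tested.

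The difference between the tissues in the effect of the genotype label was tested as an interaction over all 44 libraries. No member passed an adjusted p of 0.05 (edgeR quasi-likelihood test), where 1 of 14739 genes (0.00678%) did. DESeq2 called none of the members, with 10 of 50 at an unadjusted p under 0.05, against 2708 of 24873 genes. By edgeR at an unadjusted p under 0.05 there were 8 of 50 members, close to the background of 16.2%. All 8 were liver-made genes whose muscle values are the traces above. The fitted ratio of KO to WT was lower in liver than in muscle for 7 of them (Hc, F7, F12, Fga, Fgg, Plg and Serpinf2) and higher for Masp2. All 8 were too low for the muscle fit and entered this one through their liver counts. Over all WT muscles F12 had 0 reads, Hc and Serpinf2 2 each, Fgg 6, Fga and Plg 8 each, F7 42 and Masp2 113. Their direction is therefore not read as a result. In all, 11 of 50 members were above 0, against 46.2% of genes. Of the 50, 29 were too low for the muscle fit, so this count is not read as a result either. With scaling by library size alone the median of all genes moved to -0.11, and 11 members were again above 0, but with limma on log2(RPKM + 1) 28 were.

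Of 59 other genes of the same pathways, 57 were found in the table. None passed an adjusted p of 0.05 in either tissue (edgeR quasi-likelihood test). Under an unadjusted p of 0.05 were 12 of 47 tested in liver, against 12.8% of all genes, and 2 of 31 in muscle, against 8.56%. In liver 26 of 47 were above 0, against 48.9% of all genes, with a median of 0.02. In muscle 24 of 31 were above 0, against 53.7%, with a median of 0.11. The smallest p in liver belonged to Clu (clusterin, an inhibitor of the terminal pathway, 0.28 ± 0.09), Vtn (vitronectin, likewise, 0.28 ± 0.09) and Cfp (properdin, which stabilises the alternative convertase, 0.49 ± 0.17), each with an adjusted p of 0.383. Without the 4 KO livers with a slope below 0 these were at 0.11 ± 0.06, 0.11 ± 0.07 and 0.15 ± 0.10. Of 48 tested none was then at an unadjusted p under 0.05, against 2.88% of genes. Above 0 were 38, against 50.3% of genes, and the median was 0.06. In muscle it belonged to C1s1 (the partner of C1r, 0.26 ± 0.10) and Cd55 (a membrane regulator, 0.11 ± 0.05), with adjusted p of 0.522 and 0.531 (edgeR quasi-likelihood test). Without animals 561 and 611 they were at 0.15 ± 0.09 and 0.07 ± 0.04, with 17 of 32 tested above 0 and a median of 0.01. At an unadjusted p under 0.05 were 2 of the 32, against 1331 of 13305 genes. Between WT tissues, 46 of 49 tested were called, against 12649 of 13907 genes. Of the 49, 37 were called higher in liver, against 45.5% of genes.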

How the data were processed

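Stranded poly(A) libraries were prepared from both tissues of each of 22 mice and sequenced as 85-base single-end reads. The authors deposited raw read counts per gene and RPKM values for 38202 genes. The aligner, counting program, genome build and annotation are not given in the sources used here. The length implied by count and RPKM was over 1% from the gene's median in 45.8% of values with at least 20 reads, so the length behind the authors' RPKM varied between libraries. Their notes name limma.

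Group and animal number came from the labels. Symbols came from a table of identifiers, and 36340 of 38202 genes had one. Counts were tested in R 4.3.3 with edgeR 4.0.16 (TMM scaling, its default low-count filter, the quasi-likelihood test, and p adjusted by Benjamini-Hochberg over all genes tested, threshold 0.05), with no covariate. Fits within a tissue used its 22 libraries. Total counts ran from 20150712 to 35218243 reads, and no 2 libraries were identical. Exon overlaps and gene names were read from GENCODE and RefSeq annotation of GRCm38, promoters from RefSeq. The fits were also run on simulated counts. These held no trend on gene length, so that run does not cover the trend in the 4 KO livers.

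Alternatives were DESeq2 1.42.0, library size alone, no filter, limma 3.58.1 on log2(RPKM + 1) and log2(RPKM + 0.1), a loess on gene length (span 0.3), marker covariates, omitted libraries, the mouse as replicate block and each library left out in turn. Fold changes between genotypes are printed for the 10 members with the smallest unadjusted p per tissue, and for the 3 such other genes, of which 1 in muscle is not reported here. F5, F8, Masp1, the fibrinogen chains and Gm20547 were chosen after their values were seen, as were the correlations. The members and lists were chosen with earlier results of these data known. Separate mice were the replicates. Liver and muscle of the same animal number come from the same mouse. Deviations from group means correlated with a mean r of 0.07 (lowest -0.021) between both tissues of a mouse and -0.007 between mice, n = 22.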

Additional observations from a re-analysis of the deposited data

How the results depend on the processing

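The count of members called (0 in liver, in muscle and in the interaction) and the counts of members higher and lower in WT liver than in WT muscle (43 and 7) were the same under every alternative run, the mouse as replicate block included. That block pairs liver and muscle of a mouse. With it, 5 of 50 members instead of 8 were at an unadjusted p under 0.05 in the interaction. Of 14739 genes, 2248 were, against 2386 without the block. With limma on RPKM there were 3 members and 2468 genes (pseudocount 1) or 1 member and 2467 genes (pseudocount 0.1). In liver, the median over members was 0.065 with library size alone, which moved the median of all genes from -0.01 to -0.07, and 0.0603 without the 4 KO livers with a slope below 0. Members at an unadjusted p under 0.05 numbered 0 without those livers, against 380 of 13210 genes, and 9 with RPKM + 1, against 2014 of 13005. Leaving out 1 library at a time gave medians of 0.11 to 0.15, 12 to 19 members at that p, 34 to 39 above 0 and 0 called. In these fits 859 to 2539 genes were at that p. With the macrophage markers as a covariate 35 members were above 0 and the median was 0.15. There 16 members were at that p, against 1602 of 13005 genes. In muscle, 6 of 50 members were at that p with no filter, against 3030 of 24232 genes, and 2 with DESeq2, against 1282 of 23360. The number was 0 with RPKM + 1 or + 0.1 and with the hepatocyte or the adipocyte covariate. It was also 0 without the library with the highest hepatocyte marker sum in each group, and without animal 561 or animals 561 and 611. In the fits with 0 members, 794 to 1331 genes were at that p. The median over members was 0.07 with the hepatocyte covariate, 0.10 with the adipocyte covariate, 0.34 with no filter and 0.03 without animals 561 and 611. With no filter and with DESeq2, 42 of 50 members were above 0, where the median over all genes was 0.02 in both. The 50 include the 29 members found in muscle only at traces, so this count cannot be set beside that of the main fit. Leaving out 1 library gave medians of 0.11 to 0.23, 17 to 21 members above 0 and 0 called, the lowest median without animal 561. At that p were 0 to 2 members, and 851 to 1399 genes. Cfb reversed to -0.11 without animals 561 and 611, a setting added after seeing the data like the adipocyte and macrophage covariates. The cause of these shifts was not tested. Members with 3 or fewer reads in a group cannot be compared in muscle at this depth.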
